A study of Mus musculus with 4 samples.

Results

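The epidermal differentiation complex on mouse chromosome 3 was taken as all ATAC-seq peaks overlapping 90400000 to 93700000 of mm10, a window of 3.3 Mb that holds the S100a, Sprr, Lce, Lor, Ivl and Flg genes. The rule used position alone and no measured value. It found 1184 of the 484992 peaks listed for Irx5KO and 1213 of the 498061 listed for WT on the 21 standard chromosomes. ATAC-seq uses the transposase Tn5, which cuts and tags accessible DNA, and a peak is a stretch where the authors called such cuts enriched. The material was hair follicle stem cells sorted as Ly-6A/E-, CD34+ and CD45f+, from 2 Irx5KO samples and 2 WT samples. Irx5 is an Iroquois gene, and its product is a DNA-binding homeodomain protein. The kind of Irx5 allele, the strain, the age and the sex of the mice were not given in the sources used here, and which protein CD45f stands for was not stated.

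The deposited data were 1 pooled list per genotype, made from both samples. The spread between samples is therefore unknown, and genotypes were compared without a test. A peak was called shared when it overlapped a peak of the other list by at least 1 bp, and otherwise Irx5KO-only or WT-only, which describes the lists and not a gain or loss of accessibility. Brackets hold 95% Wilson intervals, which cover counting error only. They treat peaks or genes as independent, and near-identical gene copies are not. Read depth was not given in the lists, and genotype cannot be told apart from depth or from differences between the library preparations. Both lists had a promoter peak at Cd34, Lhx2 and Tcf7l1, genes used in bulge stem cells, and a peak near a gene end at Krt15, Sox9 and Nfatc1. Ly6a, a gene of the Ly-6A/E antigen that the cells were sorted as negative for, also had gene-end peaks in both lists, with 2 peaks inside the gene in each. Such peaks are common. Among all coding genes, 10967 of 17492 had a promoter peak in both lists and 16460 of 21887 a gene-end peak in both. The peaks at the genes named above therefore do not identify the cell type. Open chromatin at a gene does not measure its expression.

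The complex is a cluster of genes that keratinocytes switch on as they leave the basal layer and build the cornified envelope, the cross-linked shell of dead surface cells. Loricrin (Lor), involucrin (Ivl), the small proline-rich proteins (Sprr) and the late cornified envelope proteins (Lce) are parts of that shell, whereas the S100-fused proteins such as filaggrin (Flg) and trichohyalin (Tchh) bundle or embed keratin filaments. The S100A proteins bind calcium, and several are made in cells outside the cornified layers too. Hair follicle stem cells rest in the bulge, a basal compartment that does not cornify.

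The promoters below show the contrasts that the peak lists draw within the complex. They are RefSeq sequences of GRCm38.p6, the assembly of mm10, from 250 bp before to 50 bp after the annotated start, written 5′ to 3′ on the strand of the gene. Capitals mark matches to TGANTCA, a consensus of the AP-1 factors that act in keratinocyte differentiation, to TATAAA, the TATA box, and to ACANNTGT, a pattern bound by Iroquois proteins. All 3 were searched on both strands. Crnn, Ivl, Sprr1a and S100a11 are shown because both lists had a peak over this window, and Lor and Flg because neither list had one. Sprr2a1 had a peak there in the Irx5KO list only, and Lce1c in the WT list only.
Crnn promoter, chr3:93144539-93144838, plus strand: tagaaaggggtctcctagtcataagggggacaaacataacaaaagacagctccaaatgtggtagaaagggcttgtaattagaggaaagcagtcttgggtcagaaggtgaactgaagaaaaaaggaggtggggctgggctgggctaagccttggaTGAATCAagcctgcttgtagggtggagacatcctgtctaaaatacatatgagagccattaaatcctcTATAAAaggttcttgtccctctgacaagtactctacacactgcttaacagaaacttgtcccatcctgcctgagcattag
Ivl promoter, chr3:92573686-92573985, minus strand: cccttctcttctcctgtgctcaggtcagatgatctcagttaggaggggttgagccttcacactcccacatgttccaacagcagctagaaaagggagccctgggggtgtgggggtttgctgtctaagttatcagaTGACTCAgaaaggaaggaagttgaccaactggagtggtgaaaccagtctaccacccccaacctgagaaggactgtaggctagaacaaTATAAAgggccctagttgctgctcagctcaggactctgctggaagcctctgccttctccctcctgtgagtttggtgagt
Sprr1a promoter, chr3:92485832-92486131, minus strand: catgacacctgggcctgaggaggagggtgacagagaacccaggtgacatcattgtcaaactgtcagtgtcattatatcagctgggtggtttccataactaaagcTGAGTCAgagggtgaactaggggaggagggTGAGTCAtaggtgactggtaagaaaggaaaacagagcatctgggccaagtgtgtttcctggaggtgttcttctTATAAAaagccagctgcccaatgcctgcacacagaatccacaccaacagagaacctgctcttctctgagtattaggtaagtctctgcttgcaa
S100a11 promoter, chr3:93520246-93520545, plus strand: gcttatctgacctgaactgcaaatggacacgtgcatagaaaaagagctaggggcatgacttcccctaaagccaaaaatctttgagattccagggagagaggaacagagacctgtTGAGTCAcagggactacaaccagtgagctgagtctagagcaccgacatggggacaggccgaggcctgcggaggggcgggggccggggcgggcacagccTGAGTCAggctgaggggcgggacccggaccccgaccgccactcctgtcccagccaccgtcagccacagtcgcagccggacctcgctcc
Lor promoter, chr3:92083093-92083392, minus strand: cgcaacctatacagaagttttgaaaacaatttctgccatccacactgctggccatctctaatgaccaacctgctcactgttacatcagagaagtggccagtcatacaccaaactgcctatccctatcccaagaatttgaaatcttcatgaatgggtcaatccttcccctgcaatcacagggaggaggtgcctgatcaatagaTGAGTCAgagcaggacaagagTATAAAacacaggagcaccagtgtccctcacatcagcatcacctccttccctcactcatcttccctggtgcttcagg
Flg promoter, chr3:93273296-93273595, plus strand: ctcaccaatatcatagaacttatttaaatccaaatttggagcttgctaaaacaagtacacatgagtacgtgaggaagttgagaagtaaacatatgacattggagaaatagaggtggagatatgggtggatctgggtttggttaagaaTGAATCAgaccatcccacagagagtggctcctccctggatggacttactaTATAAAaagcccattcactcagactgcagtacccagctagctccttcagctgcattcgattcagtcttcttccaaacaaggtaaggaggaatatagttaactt
Sprr2a1 promoter, chr3:92215585-92215884, plus strand: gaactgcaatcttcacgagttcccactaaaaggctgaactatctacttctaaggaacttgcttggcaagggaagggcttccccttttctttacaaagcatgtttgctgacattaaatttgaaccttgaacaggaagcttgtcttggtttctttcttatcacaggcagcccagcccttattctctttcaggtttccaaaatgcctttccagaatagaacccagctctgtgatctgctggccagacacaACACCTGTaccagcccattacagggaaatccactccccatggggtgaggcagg
Lce1c promoter, chr3:92678997-92679296, plus strand: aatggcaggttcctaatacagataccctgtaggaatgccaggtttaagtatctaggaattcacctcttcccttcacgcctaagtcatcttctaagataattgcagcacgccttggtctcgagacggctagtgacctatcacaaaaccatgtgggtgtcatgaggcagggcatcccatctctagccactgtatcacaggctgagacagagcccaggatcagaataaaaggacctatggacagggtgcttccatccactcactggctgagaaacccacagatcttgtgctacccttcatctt

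Peaks were dense over the complex in both genotypes. The density was 358.8 peaks per Mb in Irx5KO and 367.6 in WT, compared with 178.1 and 182.9 over all standard chromosomes, a ratio of 2.01 in each list. Peaks covered 34.5% of the window in Irx5KO and 35.8% in WT, against 16.7% and 17.1% of all standard chromosomes. The 3 Mb below the window held 159.0 and 131.7 peaks per Mb, and the 3 Mb above it held 261.3 and 226.3. In bins of 100 kb the complex ranged from 13 to 66 peaks in Irx5KO with a median of 34, and from 10 to 69 in WT with a median of 35. The flanking bins ranged from 5 to 68 with a median of 18 in Irx5KO, and from 2 to 57 with a median of 14 in WT. The densest flanking bin thus held more peaks than the densest bin of the complex in Irx5KO, and fewer in WT. Dense bins continued past the upper edge of the window. The last bin of the complex held 54 and 55 peaks, and the first bin above it 51 and 45.

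**Figure D1:**
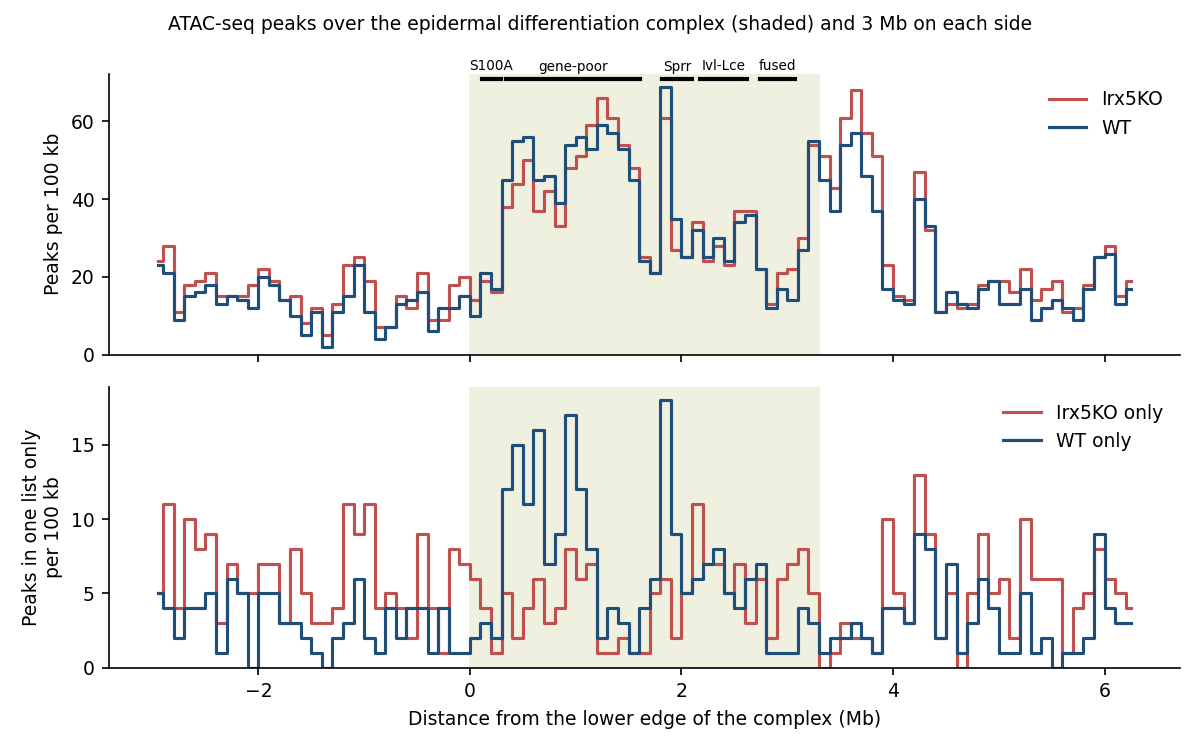
Peaks per 100 kb bin (upper panel) and genotype-only peaks per bin (lower panel) across the complex and the 3 Mb on each side, with distance in Mb on the x axis and 1 line per genotype. Shading marks the complex and black bars its gene stretches. The densest bins of the complex hold 66 Irx5KO and 69 WT peaks, and the median bin holds 34 and 35.

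The densest stretch held few genes. The region between Pglyrp4 and Pglyrp3, which encode peptidoglycan recognition proteins, is 1.27 Mb long and holds few genes, among them S100a7l2 of the S100A family and the gene models Gm36323 and Gm35185. It carried 620 Irx5KO and 652 WT peaks, or 487.8 and 513.0 per Mb. By nearest gene, 47 Irx5KO and 57 WT peaks went to S100a7l2, 72 and 65 to Gm36323, and 60 and 58 to Gm35185. Its border genes took 31 and 37 (Pglyrp4) and 29 and 23 (Pglyrp3), counted on both of their sides. Peaks covered 53.1% and 56.1% of it. Without this stretch the complex held 564 and 561 peaks, or 278.0 and 276.5 per Mb, which is 1.56 and 1.51 times the density of all standard chromosomes. How many reads in this stretch could be placed at a single position is not given in the sources used here, and the part of repeated sequence in its density was not tested.

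Of the peaks of the complex, 154 were Irx5KO-only, or 13.0% (11.2 to 15.0), and 219 were WT-only, or 18.1% (16.0 to 20.3). Over all standard chromosomes, 21.8% of the Irx5KO peaks and 26.6% of the WT peaks were genotype-only. In both lists the peaks of the window as a whole were thus shared more often than this background. Peaks also covered 34.5% of the window in Irx5KO and 35.8% in WT, against 16.7% and 17.1% of all standard chromosomes. Their median width was 490 bp in each list, against 410 bp in Irx5KO and 400 bp in WT. Any overlap counts as shared, and overlap is more likely where peaks cover more of the sequence. How much of the higher sharing comes from this coverage was not tested. By nearest gene, the S100-fused and Lce genes lay above the Irx5KO background, with 26.0% (17.3 to 37.1) and 25.5% (18.0 to 34.7) Irx5KO-only, and both intervals take in 21.8%. Among the 373 genotype-only peaks of the complex, 41.3% (36.4 to 46.3) came from the Irx5KO list, near the 44.4% over all standard chromosomes and the 43.6% over chromosome 3. The flanks leaned the other way. Below the window the Irx5KO list supplied 182 and the WT list 90 genotype-only peaks, a share of 66.9% (61.1 to 72.2). Above the window these numbers were 144 and 95, a share of 60.3% (53.9 to 66.2). The interval of the complex did not overlap that of either flank.

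The gene-poor stretch carried much of this split. Its Irx5KO list had 47 genotype-only peaks (7.58%) and its WT list 114 (17.5%), so Irx5KO supplied 29.2% (22.7 to 36.6) of them. In the rest of the complex 107 peaks (19.0%) were Irx5KO-only and 105 (18.7%) WT-only, an even split with an Irx5KO share of 50.5% (43.8 to 57.1). The interval of the Irx5KO-only percentage there, 15.9 to 22.4, takes in the background of 21.8%, whereas that of the WT-only percentage, 15.7 to 22.2, lies below 26.6%. The interval of the Irx5KO share overlaps that of the upper flank and not that of the lower flank.

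**Figure D2:**
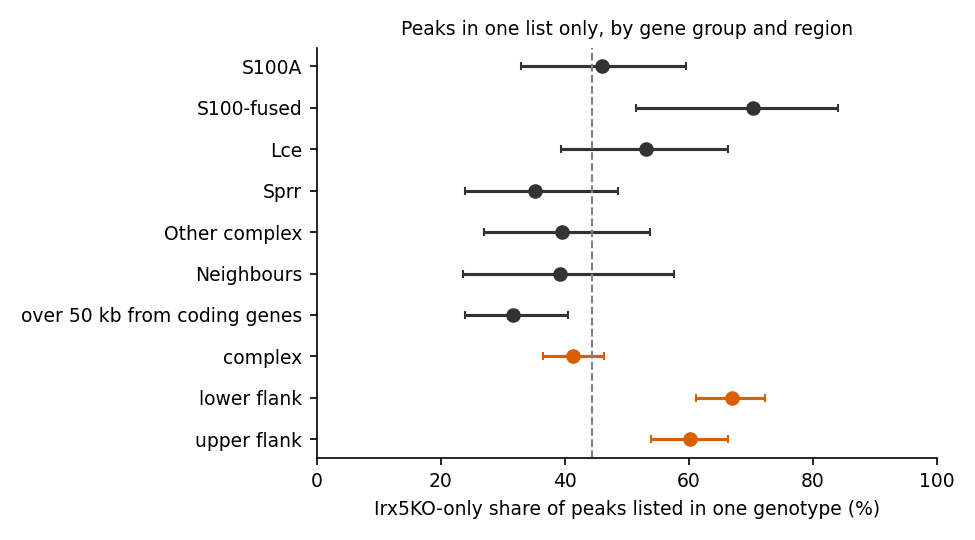
Share of genotype-only peaks that came from the Irx5KO list, in percent on the x axis, for the complex, its gene subfamilies and its flanks, with 95% Wilson intervals as bars and the value over all standard chromosomes as a dashed line. The S100-fused genes lie at 70.4% and the Sprr genes at 35.2%, on either side of the 44.4% over all standard chromosomes.

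The subfamilies were compared by assigning each peak to the nearest gene span within 50 kb. The 7 S100-fused genes (Crnn, Flg2, Flg, Hrnr, Rptn, Tchh and Tchhl1) had 73 Irx5KO and 60 WT peaks, of which 19 and 8 were genotype-only. The Irx5KO share there was 70.4% (51.5 to 84.1), above the 44.4% over all standard chromosomes. Its interval takes in the 66.9% of the lower flank and the 60.3% of the upper flank. Rptn, which encodes the repeat protein repetin, had 11 and 6 peaks with 5 and 0 genotype-only, and Hrnr had 14 and 10 with 4 and 0. Flg2 had 10 and 8 with 3 and 1, and Flg had 8 and 10 with 1 and 2. Without Rptn the share was 63.6% (42.9 to 80.3), an interval that takes in 44.4%. The 14 Sprr genes had 134 and 148 peaks with 19 and 35 genotype-only, an Irx5KO share of 35.2% (23.8 to 48.5). The intervals of these 2 subfamilies did not overlap. The copies Sprr2a1, Sprr2a2 and Sprr2a3 held 2, 2 and 3 of the Irx5KO-only and 6, 5 and 7 of the WT-only peaks. Without them 12 and 17 remained, a share of 41.4% (25.5 to 59.3), and this interval overlaps that of the S100-fused genes. With assignment within 10 kb the S100-fused share was 69.2% (42.4 to 87.3) and the Sprr share 32.4% (19.6 to 48.5), so that the intervals overlapped and the first took in 44.4%. The 21 Lce genes had 102 and 101 peaks with 26 and 23 genotype-only, a share of 53.1%. The 15 S100A genes had 120 and 127 peaks with 23 and 27 genotype-only, a share of 46.0% (33.0 to 59.6). S100a7l2, in the gene-poor stretch, held 47 and 57 of these peaks, with 6 and 17 genotype-only. Most WT-only peaks of the S100A genes thus went to this gene, and the share without it was not computed. Among single Lce genes, Lce6a had 9 and 6 assigned peaks with 4 and 1 genotype-only, Lce3a had 9 and 8 with 2 and 1, and Lce3d had 8 in each list with 0 genotype-only. Tdpoz8, a neighbour just above the Lce genes, had 29 and 31 with 0 and 5 genotype-only. A further 403 Irx5KO and 430 WT peaks lay more than 50 kb from any coding gene, and 37 and 80 of them were genotype-only.

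Promoter windows were then read from the RefSeq starts. Of the 67 genes in the 5 lists of the complex, 59 had a promoter entry, and a peak overlapped the 300 bp window in 23 of them in Irx5KO (39.0%, 27.6 to 51.7) and in 19 in WT (32.2%, 21.7 to 44.9). Over all 17492 coding genes with an entry these shares were 69.1% and 66.0%, in the lower flank 82.8% and 69.0%, and in the upper flank 80.5% and 72.7%. The promoters of the complex were thus listed as open less often than those on either side, with intervals of 73.5 to 89.3 and 58.6 to 77.7 below the window and 70.3 to 87.8 and 61.9 to 81.4 above it. Most genes of the complex are short, with a median length of 1928 bp against 17169 bp for all coding genes. Among coding genes of 1000 to 3000 bp, 49.3% (46.8 to 51.9) and 48.7% (46.1 to 51.3) of 1458 had a promoter peak. The 34 genes of the complex in that range had one in 32.4% (19.1 to 49.2) in each list, and these intervals overlap.

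A promoter peak stood in both lists at 15 genes and in neither at 32. The Irx5KO list alone had one at 8 genes and the WT list alone at 4. The background for a promoter peak in 1 list was 6.37% for Irx5KO only and 3.33% for WT only among all coding genes. Of these 12 genes, 9 were Lce genes and 3 the Sprr2a copies.

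**Figure D3:**
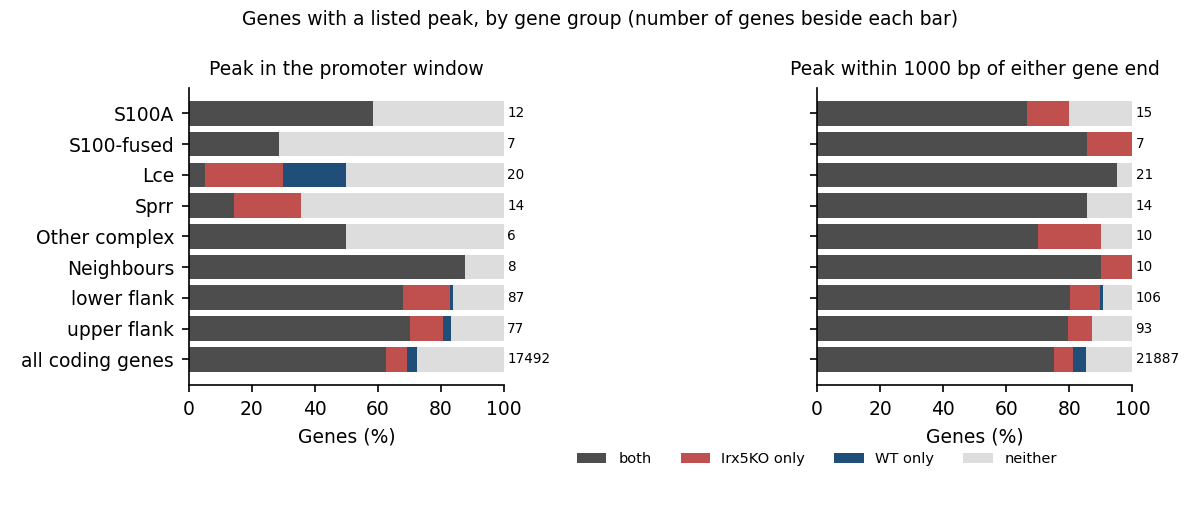
Percent of genes (x axis) in each subfamily, the flanks and all coding genes with a peak in both lists, in a single list or in no list, over the promoter window (left) and within 1000 bp of either gene end (right), with the number of genes beside each bar. Of the 20 Lce genes, all of those with a promoter entry, 10 have no promoter peak in either list, whereas 20 of all 21 have a gene-end peak in both. Over all coding genes, 4828 of 17492 have no promoter peak in either list, and 16460 of 21887 have a gene-end peak in both.

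Among the S100A genes, 7 of 12 genes had a promoter peak in both lists and 5 in neither, counting a gene once however many starts it has. By start, 9 S100A promoters had a peak in Irx5KO and 8 in WT, since a start of S100a3 at 90600214 had one in Irx5KO only, with a score of 165. S100a11 (chr3:93520496-93526288), an annexin-binding S100 protein, had a promoter peak of 1300 bp in Irx5KO with a score of 328 (percentile 70.0 of that list) and of 1420 bp in WT with a score of 223 (percentile 55.1). The score is the authors' own and ranks peaks within a list only. At S100a6 (chr3:90612894-90614414) the promoter peak had a score of 201 in Irx5KO and 189 in WT, at percentile 48.1 of each list. S100a4 (chr3:90603770-90606045), a marker of motile and fibroblast-like cells, had no promoter peak, but both lists had a peak inside the gene, with scores of 246 and 162. S100a8 and S100a9, which together form the inflammatory protein calprotectin, had no promoter peak in either list. Before S100a8 (chr3:90669071-90670034) lay a shared peak at chr3:90667231-90667490 in Irx5KO with a score of 347 (percentile 72.3) and at chr3:90667241-90667490 in WT with a score of 836 (percentile 96.5). At S100a10, which has no promoter entry, both lists had a gene-end peak.

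The Sprr genes had a promoter peak in both lists at Sprr1a and Sprr2b only. Sprr1a (chr3:92483954-92485881), a cross-linking precursor that is also induced by injury, had a promoter peak with a score of 343 in Irx5KO (percentile 71.8) and 247 in WT (percentile 59.5), with summits 135 and 175 bp before the start. Inside the same gene the Irx5KO list had a peak of its own at chr3:92484361-92484710 with a score of 234. Sprr1b (chr3:92436808-92438817) had no promoter peak, and its shared peak lay in the gene away from the start with scores of 412 and 411.

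The copies Sprr2a1, Sprr2a2 and Sprr2a3 had a promoter peak in Irx5KO only, with scores of 132, 132 and 140. The Sprr2a1 peak ran from 534 bp before to 315 bp after the start, and that of Sprr2a2 from 536 bp before to 313 bp after it. In WT a peak of 300 bp began 156 bp after the Sprr2a1 start and 154 bp after the Sprr2a2 start. Each WT peak overlaps the Irx5KO peak, so the peaks counted as shared although the promoter window was covered in 1 list. The promoter sequences of Sprr2a1 and Sprr2a2 were identical over all 300 bp, so reads from one copy cannot be told from reads of the other in this window. The 3 copies are therefore uncertain as separate observations.

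The Lce genes had weak peaks at their starts. Of 20 promoters, 1 had a peak in both lists (Lce1b), 5 in the Irx5KO list alone (Lce6a, Lce1a1, Lce1e, Lce1l and Lce3e), 4 in the WT list alone (Lce1c, Lce1d, Lce1h and Lce3c) and 10 in neither list. The Irx5KO promoter peaks lay between percentiles 2.66 and 9.32 of their list, and the WT ones between 4.16 and 27.7. The highest of them, at Lce1h in WT, had a score of 117. Lce genes are close copies, and how reads that match several of them were placed is not given in the sources used here. Among peaks above the middle of each list by score, 8.47% of the complex promoters in Irx5KO and 6.78% in WT had a peak, against 44.5% and 34.0% of all coding genes.

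The S100-fused genes had a promoter peak at Crnn and Tchhl1 in both lists, and at Flg, Flg2, Hrnr, Rptn and Tchh in neither. Crnn (chr3:93144789-93149818), which encodes the squamous protein cornulin, had the strongest promoter peak of the subfamily, with a score of 549 in Irx5KO (percentile 87.9) and 381 in WT (percentile 76.0). Its summits lay 7 and 47 bp after the start. The Tchhl1 promoter peaks scored 97 and 80, near the bottom of each list.

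Of the single-copy envelope genes, Ivl (chr3:92570899-92573790) had a promoter peak in both lists with scores of 116 and 122, at percentiles 24.0 and 29.4. Lor (chr3:92080271-92083142) had none over its window. Its nearest peaks were inside the gene, with summits 386 bp from the start in Irx5KO and 416 bp in WT and scores of 92 and 90. Peaks covered 66.9% of the Lor gene in Irx5KO and 69.3% in WT.

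Peaks were also counted within 1000 bp of either gene end. Of the 67 complex genes, 55 had one in both lists and 7 in neither. The Irx5KO list alone had one at 5 genes, and the WT list alone at 0. The background among all 21887 coding genes was 6.07% for Irx5KO only and 3.99% for WT only. Those listed for Irx5KO only were S100a3, S100a7l2, Pglyrp4, Smcp and Flg2, and the neighbour Npr1, a natriuretic peptide receptor, made a sixth in the window. At Npr1 the Irx5KO peak at chr3:90465261-90465810 had a score of 103 (percentile 19.2), while the nearest WT peak to the start lay 4200 bp away. The count of 5 among 67 is close to the background share of 6.07%.

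Over the complex genes together, the other end was listed as open about as often as the start. Within 1000 bp of the start, 66.1% of the complex genes had a peak in Irx5KO and 64.4% in WT, and at the other end 69.5% and 67.8%. All coding genes had 75.4% and 73.3% at the start against 35.2% and 34.9% at the other end. Since the complex genes are short, the windows of both ends can share a peak, so short genes are the nearer comparison. Coding genes of 1000 to 3000 bp had a peak at the other end in 52.1% (49.5 to 54.6) and 50.8% (48.2 to 53.3), and complex genes of that length in 85.3% (69.9 to 93.6) and 79.4% (63.2 to 89.7). These intervals did not overlap in either list. Of the 38 complex genes of that length, with or without a promoter entry, 19 were Lce and 10 Sprr genes. At the start the short genes of the complex had 64.7% and 70.6%, near the 66.7% and 64.5% of short genes at large.

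The Lce genes stood out in this count, with a peak at the other end in 18 of 20 genes in Irx5KO and 19 in WT. Of 29 Irx5KO and 28 WT summits inside Lce genes, 69.0% (50.8 to 82.7) and 67.9% (49.3 to 82.1) lay in the downstream part of the gene, beyond its midpoint. The shares were 54.5% in each list for all complex genes together, and 45.6% and 46.0% over all coding genes. Summit positions were not counted for short genes at large. Coverage was also read by position. At the annotated start base a peak covered 38.1% of complex starts in Irx5KO and 27.0% in WT, and 1200 bp downstream 39.7% in each. Flanking genes fell from 69.2% and 55.1% at the start to 15.4% and 13.1% at 1200 bp. Coding genes of 1000 to 3000 bp, the nearer comparison, went from 45.1% and 44.3% at the start to 21.3% and 18.5% at 1200 bp, a smaller contrast with the complex. The complex starts were of genes of any length, so the sets are unlike. Of the positions read, 1200 bp is where the complex was highest, in WT level with 1100 bp. At 500 bp it had 20.6% and 22.2%, and at 2000 bp 17.5% in each list.

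**Figure D4:**
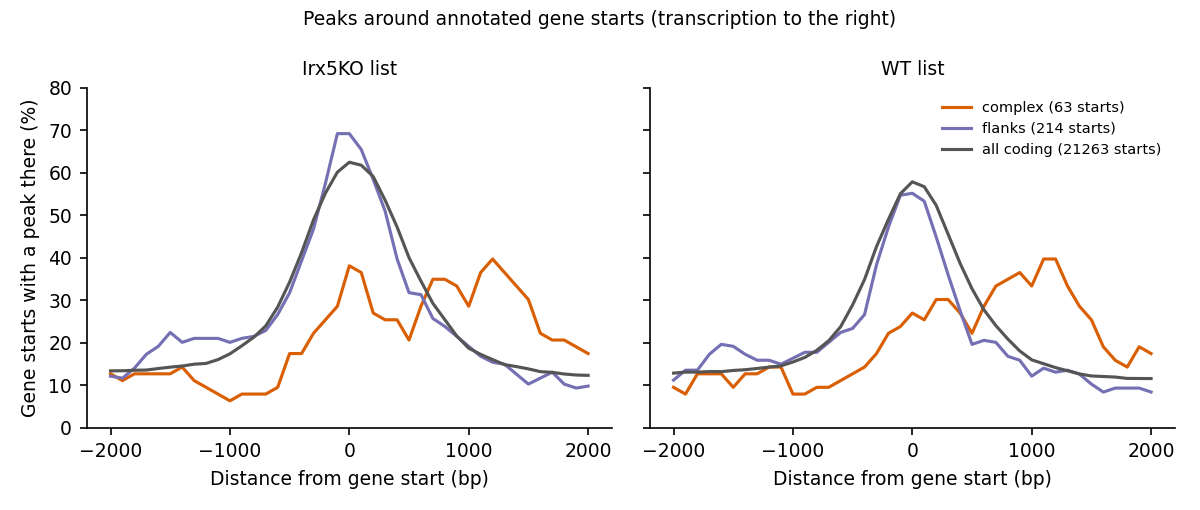
Percent of annotated starts covered by a peak (y axis) by distance from the start in bp (x axis), with 1 panel per genotype and lines for the complex, the flanks and all coding genes. The complex reaches 38.1% in Irx5KO and 27.0% in WT at the start and 39.7% in both lists 1200 bp downstream, whereas all coding genes peak at the start with 62.4% and 57.8%.

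Several of the widest peaks lay inside S100-fused genes and S100a7l2, and others between genes. Peaks wider than 2000 bp numbered 127 in Irx5KO and 135 in WT, of which 80 and 90 lay in the gene-poor stretch. They were 10.7% and 11.1% of the peaks of the complex. Over all standard chromosomes such peaks were 8.47% and 8.51%, in the upper flank 12.2% and 13.1%, and in the lower flank 1.89% and 2.03%. All wide peaks of the complex were shared, but how often such peaks are shared elsewhere was not counted. Their median percentiles were 84.6 and 83.7, and in that decile 99.3% and 99.4% of all listed peaks were shared. The wide peaks held 46.0% and 47.0% of all peak bases of the complex. The widest, in Flg2, spanned chr3:93203551-93219930 in Irx5KO, 16380 bp with a score of 1438 (percentile 99.7). In Flg, whose product aggregates keratin, a peak spanned chr3:93282541-93293070, 10530 bp with a score of 705 in Irx5KO and 582 in WT. Hrnr, a filaggrin relative, had a peak of 8190 bp in Irx5KO. The peak inside S100a7l2 was 11370 bp wide in Irx5KO, and its WT counterpart 11300 bp. The second widest WT peak, 12700 bp at chr3:91121331-91134030, lay 13.9 kb outside S100a7l2. Over nearly the same span the Irx5KO list had separate peaks, at chr3:91121341-91128940 and chr3:91128991-91134030. A peak of 10100 bp in Irx5KO and 10220 bp in WT, from 91877951 and 91877891, lay more than 50 kb from any coding gene. Peaks covered 71.6% and 68.7% of the Flg2 gene, 68.3% of Flg in each list, and 61.3% and 61.8% of Hrnr, although none of these S100-fused genes had a peak over its promoter window. These genes consist largely of tandem repeats, and the part of repeated sequence in these peaks was not tested.

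**Figure D5:**
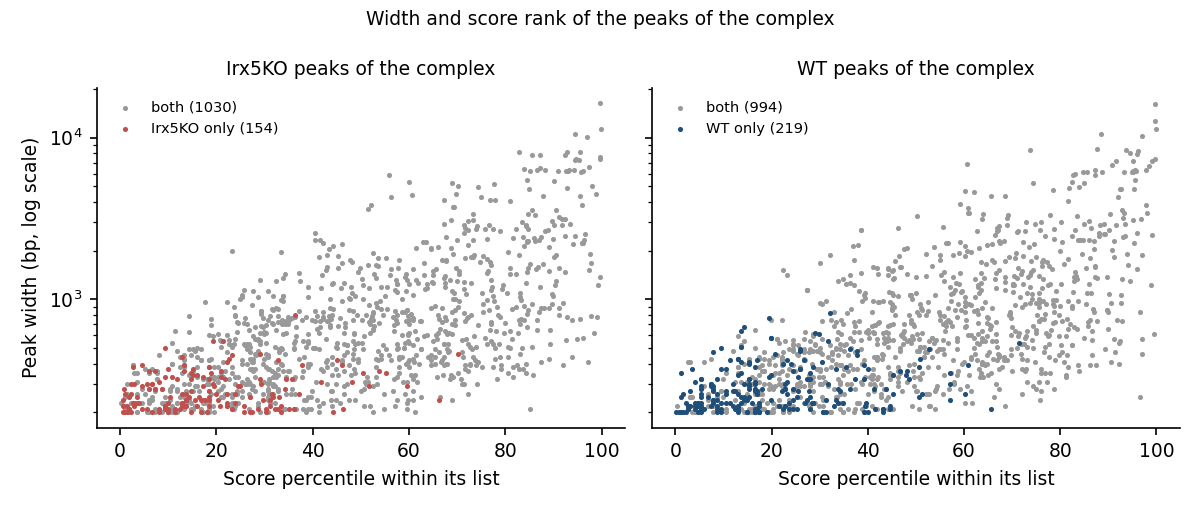
Peak width in bp (log axis) against score percentile within each list for the peaks of the complex, with shared and genotype-only peaks marked apart. All peaks above 2000 bp are shared, 127 in Irx5KO and 135 in WT. How often such peaks are shared over all standard chromosomes was not counted. Genotype-only peaks have median percentiles of 16.6 and 17.0, near the 15.5 and 18.0 over all standard chromosomes.

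Genotype-only peaks were low in rank and narrow. Their median percentile was 16.6 in Irx5KO and 17.0 in WT, against 50.2 and 53.6 for shared peaks. Their median width was 250 and 260 bp against 565 and 580 bp. Genotype-only peaks were much the same over all standard chromosomes, at percentiles 15.5 and 18.0 with 250 bp in each list. Shared peaks there ranked higher than in the complex, at 60.2 and 62.6, and were 500 bp wide in each list. Among the peaks in deciles 9 and 10 of each list by score, every peak of the complex was shared, which is near the background of 99.3% and 99.8% in Irx5KO and 99.4% and 99.9% in WT over all standard chromosomes. The highest-scored genotype-only peaks of both lists lay near Prr9, a proline-rich protein gene. The Irx5KO-only one was chr3:92119581-92120040 with a score of 329 (percentile 70.1), and the WT-only one chr3:92126381-92126920 with a score of 335 (percentile 71.4). They lie on either side of the gene (chr3:92122204-92123947). Next came, in Irx5KO, a peak at chr3:93413601-93413840 nearest to Rptn with a score of 300 and others nearest to Hrnr and S100a13. In WT the next were nearest to Npr1 and Sprr2d, and in Lce1g a peak at chr3:92751221-92751480 had a score of 251.

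Letters of the promoters differed between subfamilies. TGANTCA stood in 20 of the 63 promoter entries of the complex lists (31.7%), against 6.99% of 21263 promoters of coding genes. It was found in 9 of 14 Sprr, 5 of 7 S100-fused, 3 of 16 S100A and 0 of 20 Lce promoters. By gene, 9 of the 15 with a promoter peak in both lists held it, and 11 of the 32 with none. It stood at 0 of the 8 genes with a peak in the Irx5KO list alone and at 0 of the 4 in the WT list alone. These single-list genes are all Lce genes or Sprr2a copies. Over all coding promoters, counted by entry, TGANTCA stood in 5.21% of those with a peak in both lists and 9.97% of those with none. For a peak in the Irx5KO list alone the share was 8.17%, and in the WT list alone 9.22%. TATAAA between 40 and 20 bp before the start, on the strand of the gene, stood in 20 of 63 (31.7%), against 2.53% of all coding promoters. Of the printed promoters, Crnn, Ivl, Sprr1a, Lor and Flg hold both TGANTCA and TATAAA somewhere in the 300 bp. TATAAA begins 43 bp before the start in Sprr1a and 53 bp before it in Flg, outside the range above. Both lists had a peak at the promoters of Crnn, Ivl and Sprr1a, and neither list at those of Lor and Flg.

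The Iroquois pattern ACANNTGT stood in 6 of 63 entries (9.52%), against 6.06% of all coding promoters. The 6 were Sprr2a1, Sprr2a2, Sprr2a3, Lce3c, S100a3 and S100a9, of which the first 3 are copies. AACCNGTT, a grainyhead-like pattern, stood in 3 (4.76%, against 1.95%), CCAAT in 16 (25.4%, against 38.2%) and CACCC, a motif of Krüppel-like factors, in 36 (57.1%, against 59.5%). Matches of different motifs overlapped each other in 5 cases. A match is a description of the letters and not a binding site, and all of these patterns were counted on both strands.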

How the data were processed

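ATAC-seq was done on 2 Irx5KO and 2 WT samples. Per the submitters' processing notes, the build was mm10 and the tools included Bowtie2, cutadapt 2.9, FastQC, the peak caller Genrich 0.6, ChIPseeker 1.24.0 and deepTools 3.4.2. Not given in the sources used here were their settings, the treatment of duplicate or multiply mapped reads and any shift for the Tn5 cut. The authors deposited 1 pooled peak list per genotype with a whole-number score for each peak (lowest value 50), used here only to rank peaks within a list. Signal, p-value and q-value hold 0 throughout the 486180 Irx5KO and 499794 WT entries deposited, of which 1188 and 1733 on contigs were left out. The deposited lists also give each peak's summit as an offset from its start, another number per peak.

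Genes and promoters came from RefSeq tables of GRCm38.p6. Of the 77 coding genes in the window, 67 had a promoter entry. Gene-end windows reached 1000 bp outward and inward of both ends, peaks were assigned to the nearest gene span within 50 kb, and short genes were 1000 to 3000 bp long. Promoter motifs were matched as letters on both strands. Overlaps were checked with bedtools 2.31.1 and on simulated data. Python 3.11.15, numpy 2.4.6, pandas 2.3.3 and matplotlib 3.10.9 were used.

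The members and lists were chosen with earlier results of these data known. Named genes were those whose gene-end peak stood in a single list, the 3 of each list with the most assigned peaks, 11 fixed genes, and those nearest to the 5 highest-scored genotype-only and the 5 widest peaks of each list. Other genes are named by their promoter status or as members of a printed set, chosen after their values were seen. Alternatives changed the score threshold, overlap, peak width, window, assignment distance and gene-end window.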

Additional observations from a re-analysis of the deposited data

How the results depend on the processing

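No paired analysis was possible because each genotype has 1 pooled list with no value per sample, and for the same reason no sample could be left out. Of 74 alternative values for 19 results, 50 stayed within the interval of the main value or, for ratios of density and coverage, near the main ratio, and 24 moved. With the upper 50% of each list by score, Irx5KO-only peaks were 1.34% and WT-only peaks 2.18% of those left, and the Irx5KO share of genotype-only peaks was 100% for S100A, 0% for Lce and 0% for the neighbours, on few peaks. With an overlap of at least 50% of the peak, 17.65% were Irx5KO-only and 23.3% WT-only. The genotype-only shares over all standard chromosomes were not computed with the upper 50% or with this overlap. Leaving out Rptn or the Sprr2a copies, chosen after seeing the data, gave shares of 63.6% and 41.4%. Without the gene-poor stretch, also chosen after seeing the data, 19.0% were Irx5KO-only and the Irx5KO share was 50.5%. Gene-end peaks stood at 79.1% of complex genes in Irx5KO with windows of 500 bp, at 98.5% and in WT 97.0% with 3000 bp, at 50.75% and 40.3% with the upper 50% of peaks, and at 66.1% and 64.4% at the start end only. For gene-end peaks, the share over all coding genes was not computed with these windows or with the upper 50%. Promoter peaks fell to 8.47% and 6.78% with the upper 50%, also chosen after seeing the data. Depth is unknown, so weak peaks listed in 1 genotype cannot be told from peaks near the calling threshold.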

Other observations

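Non-coding genes of the window also carried peaks. Of 5 lncRNA genes, 4 had a peak in each list. Gm35639 had 19 Irx5KO and 18 WT peaks, of which 6 and 4 were genotype-only, and Gm35785 had 11 and 13, of which 1 and 4 were. Of 25 pseudogenes, 12 had a peak in Irx5KO and 13 in WT. Shares over all lncRNA genes and all pseudogenes were not computed, and peaks covered 34.5% and 35.8% of the window. These counts are therefore not read as a trait of the complex.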
